A study of Mus musculus with 12 samples.

Results

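The arrays described here compare primary mouse aortic smooth muscle cells (MASMC) transfected with siRNA against Oct4 with control cells, both under an oxidized phospholipid. All 6 samples received POVPC at 10 µg/mL for 24 h after 48 h of siRNA in serum-free medium. The siOCT4-POVPC group (3 arrays) had the Oct4 siRNA and the siNT-POVPC group (3 arrays) a pooled non-target siRNA. These are 6 of the 12 arrays of the series. The other 6 are the same transfections with the vehicle, DMSO (siOCT4-DMSO and siNT-DMSO, 3 arrays each), and they serve here as a second, separate look at the knockdown, since the comparison with POVPC and the comparison with DMSO share no array. Each array carries 60641 probes of the deposited table, of which 22359 are named as mRNA probes and 38282 were taken as long non-coding RNA (lncRNA) probes. The test took in the 20625 mRNA and 33881 lncRNA probes that the scanner software marked as well above background on 3 or more of the 12 arrays. Cells were cultured without any sort, and no source used here says that the replicates were separate cultures or animals, so the p-values measure the spread between these samples only. In a bulk culture, fewer cells of a type and less RNA per cell cannot be told apart.

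Oct4 (Pou5f1) is an octamer-binding transcription factor of pluripotent cells. It is silenced in most somatic cells and is known to be reactivated in SMC of atherosclerotic lesions, where its loss in SMC worsens disease in mice. POVPC, an oxidation product of a common membrane phosphatidylcholine, accumulates in lesions and switches cultured SMC away from the contractile state. lncRNAs are transcripts without a coding frame. Many lie antisense to a coding gene, within its introns (intronic antisense) or across its exons (natural antisense), and such neighbours can be controlled together or against each other.

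The 2 groups were scanned on different slides. All 3 siNT-POVPC arrays were on slide 1 with the siNT-DMSO arrays and siOCT4-DMSO 1 and 2, and all 3 siOCT4-POVPC arrays were on slide 2 with siOCT4-DMSO 3. The slide and the knockdown therefore cannot be told apart within these 6 arrays. The siOCT4-POVPC arrays were also dimmer: 49056, 49015 and 49472 probes were well above background, against 54581, 52561 and 55326 on the siNT-POVPC arrays. The median processed signal was 68.7, 72.7 and 76.3 against 113.6, 92.9 and 111.2, and no probe was saturated on any array. Values below are log2 signals after quantile normalization over the 12 arrays, and each difference is siOCT4-POVPC minus siNT-POVPC from limma, given with its standard error (SE) and a p-value adjusted by Benjamini-Hochberg over the 54506 probes tested. A probe was called when that adjusted p was under 0.05 and the fold change at least 1.5. "Rose" and "fell" are used of called probes only, for higher and lower in siOCT4-POVPC.

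No probe could be named for Pou5f1 itself, so the knockdown was not checked on the arrays. The paper reported it by quantitative RT-PCR in siRNA-transfected cells treated with POVPC. Of the defining smooth muscle markers Acta2, Tagln, Myh11, Cnn1, Smtn and Lmod1, Tagln and Smtn had a named probe, and neither was called. Tagln, for an actin-binding protein of contractile SMC, read 4.75, 4.26 and 4.56 in siNT-POVPC and 3.99, 4.41 and 4.11 in siOCT4-POVPC (log2 difference of -0.35, adjusted p = 0.259 by limma), with overlap between the groups. Smtn read 4.44, 4.79 and 4.57 against 5.20, 5.08 and 4.69 (0.39, adjusted p = 0.301 by limma), and the groups overlapped too. No endothelial marker had a named probe. Of 9 leukocyte and macrophage genes listed, 2 had one, and neither Cd22 (0.40) nor Vav1 (0.18) was called. Of 4 fibroblast genes with a probe, Pdgfra rose (a call lost with normexp background correction and with a floor of 20), while Dpt (-0.83), Col1a1 (0.37) and Thy1 (-0.23) were not called. Col1a1 was called with the slide as a fixed term, at 2.53 (adjusted p = 0.00196 by limma).

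With POVPC present, the knockdown came with a broad change in both classes of transcript. Of the lncRNA probes, 4042 were called (11.9%), with 2536 higher (7.49%) and 1506 lower (4.44%) in siOCT4-POVPC. Of the mRNA probes, 2095 were called (10.2%), 1376 higher (6.67%) and 719 lower (3.49%). The shares of the classes were close, and so were the median absolute log2 differences, 0.34 in both classes. For comparison, groups did not overlap for 43.4% of all lncRNA probes and 44% of all mRNA probes tested. The split between rises and falls hangs on the scaling. After quantile normalization the median probe lay at -0.08 and 63.7% of calls were higher, whereas scaling each array to its 75th percentile put the median at -0.27 and made 28.6% of 11917 calls higher. The counts also hang on single arrays. Leaving out 1 array gave 1942 to 5475 lncRNA and 976 to 2899 mRNA calls, the lowest without siOCT4-POVPC 3 and the highest without siOCT4-DMSO 3, and falls in all numbered 672 with normexp background correction and 1010 with the slide as a random term, against 2225. With the 75th percentile scaling 2187 lncRNA and 1218 mRNA probes were called higher and 5930 and 2582 lower.

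**Figure D1:**
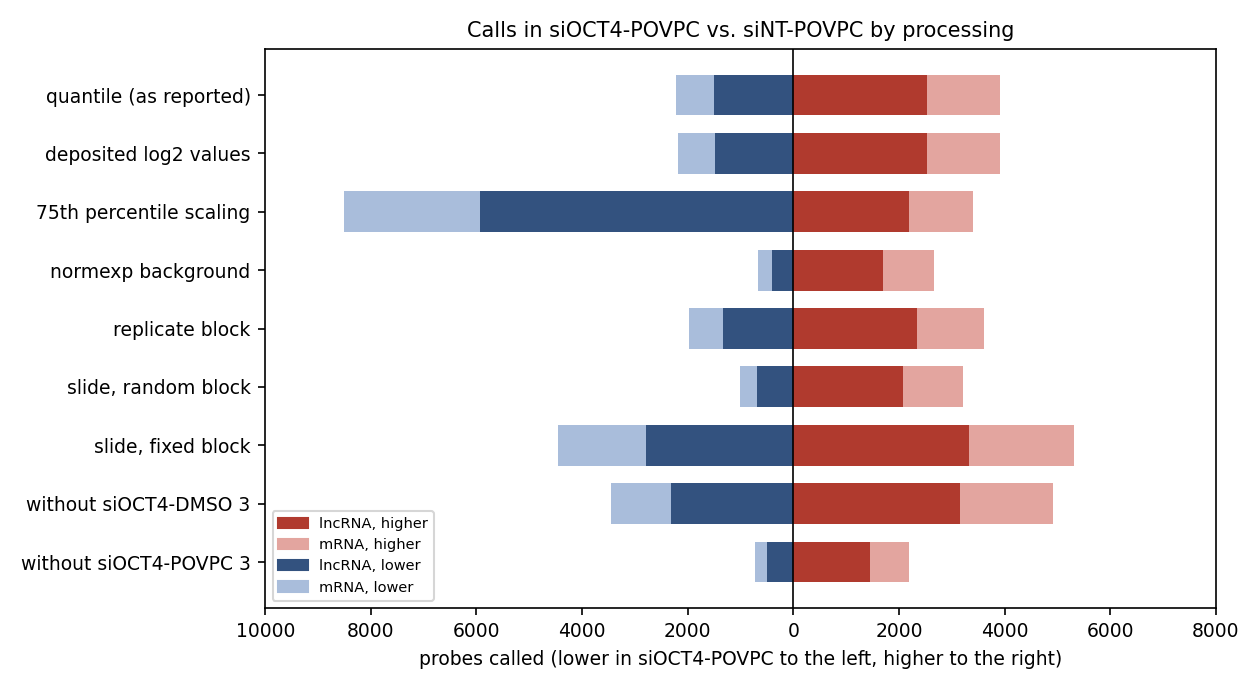
Number of probes called in siOCT4-POVPC vs. siNT-POVPC (x axis) under 9 ways of processing (y axis), with calls higher in siOCT4-POVPC to the right of 0, calls lower to the left, lncRNA in the dark shade and mRNA in the light shade. Rises ranged less than falls, and scaling to the 75th percentile, with 8512 falls, was the one of these ways that called more falls than rises.

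The largest named rise was that of Il7, which encodes interleukin 7, a cytokine that sustains developing lymphocytes. Its log2 signal was 8.77, 8.93 and 8.71 on the siNT-POVPC arrays and 13.36, 13.41 and 13.81 on the siOCT4-POVPC arrays. The groups lay far apart, and the difference of 4.72 (SE 0.27, n = 3 and 3, adjusted p = 3.9e-06 by limma) is a 26.4-fold higher signal. The same gene was 4.12 higher in the DMSO knockdown (adjusted p = 1.4e-05 by limma). Its natural antisense neighbour Gm16685, whose transcript on chromosome 3 (7612705 to 7690001) overlaps the 5′ end of Il7 (7573127 to 7612893), differed by -0.58 (adjusted p = 0.242 by limma) and was not called.

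The largest named lncRNA rise was that of Gm28821, which lies within an intron of Kcnq1 on the opposite strand (chromosome 7, 143135031 to 143140608). Kcnq1 encodes a voltage-gated potassium channel and sits in an imprinted domain. Gm28821 read 6.91, 7.15 and 6.94 in siNT-POVPC and 11.32, 11.23 and 11.28 in siOCT4-POVPC, without overlap. The difference was 4.28 (SE 0.14, adjusted p = 7.22e-08 by limma), a 19.4-fold higher signal. Kcnq1 itself read 6.33, 6.29 and 6.45 against 8.31, 8.42 and 8.69, and rose by 2.12 (SE 0.22, adjusted p = 0.000176 by limma). Both therefore rose together, the lncRNA further than the mRNA on the log2 scale.

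The strongest named fall was that of Actr3b, a gene for a form of the actin-related protein Arp3, part of the complex that branches actin filaments. Its log2 signal was 8.03, 7.56 and 8.07 in siNT-POVPC and 5.25, 4.83 and 5.51 in siOCT4-POVPC. The highest knockdown array was still more than 2 log2 units below the lowest control array. It fell by 2.69 (SE 0.25, adjusted p = 8.25e-05 by limma), a 6.44-fold lower signal, and in DMSO the difference was -3.73. Il7, Gm28821, Kcnq1 and Actr3b were called under each of 26 settings, the reported fit and all alternatives run except the 3 that relax the threshold. Their sizes varied with the setting. Il7 ranged from 3.7 to 4.8, Gm28821 from 3.83 to 4.35 and Kcnq1 from 1.34 to 2.20. Actr3b ranged from -2.96 to -1.67, the latter with normexp background correction.

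**Figure D2:**
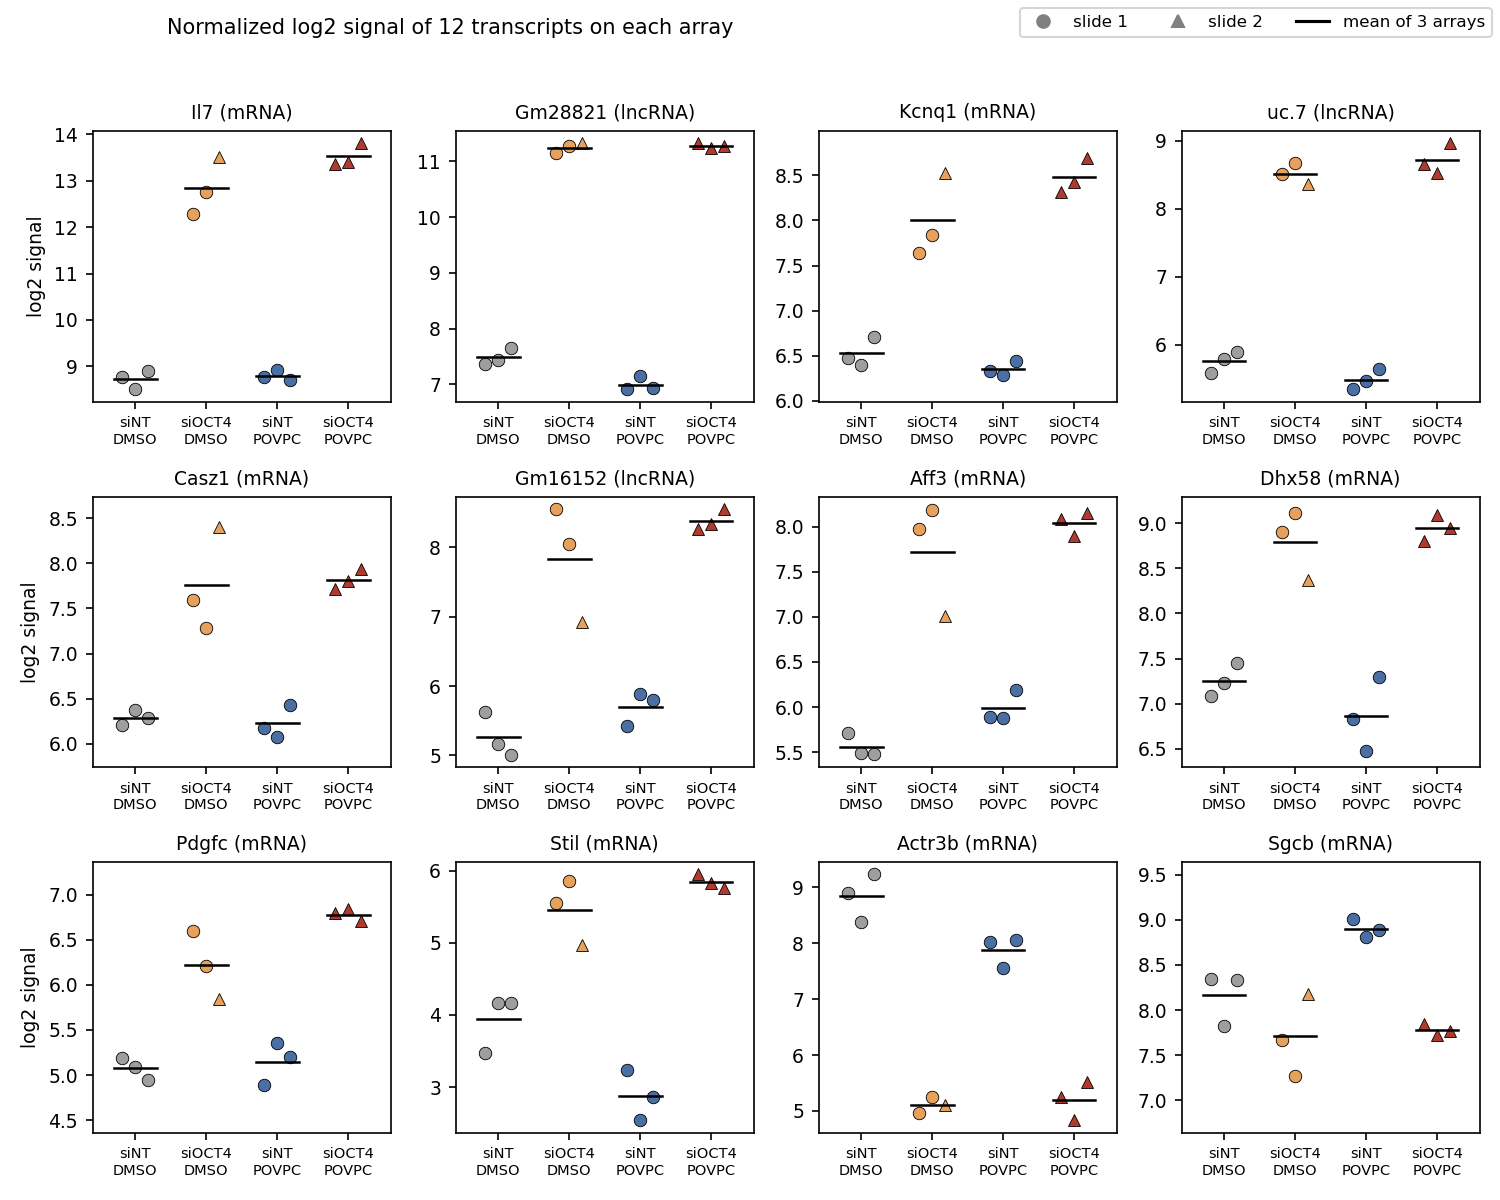
Normalized log2 signal (y axis) of 12 transcripts in the 4 groups (x axis), 1 point per array, with circles for slide 1, triangles for slide 2 and a bar at the mean of 3 arrays. In each panel the siOCT4-POVPC arrays are separate from the siNT-POVPC arrays, with Il7 at 13.36 to 13.81 against 8.71 to 8.93 and Actr3b at 4.83 to 5.51 against 7.56 to 8.07.

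Most rises and falls with POVPC had the same sign without it. Of the 6137 probes called with POVPC, 2315 were also called in siOCT4-DMSO vs. siNT-DMSO, and 2313 of these had the same sign, 1900 higher and 413 lower. That is 37.7% of the calls with POVPC and 64.4% of the 3596 calls with DMSO (7.06% of lncRNA and 5.84% of mRNA probes tested). The shared calls numbered 1435 without siOCT4-DMSO 1, 3569 without siOCT4-DMSO 3 and 63 by the methods' t-test after adjustment. Of the 3822 probes called only with POVPC, 3450 (90.3%) lay on the same side of 0 in DMSO. The difference between the knockdown with POVPC and with DMSO was tested directly and gave no call (0 of 54506 probes, smallest adjusted p = 0.135 by limma), with 4560 probes (8.37%) at an unadjusted p under 0.05. With the slide as a fixed term, 2374 probes were called for this difference. A call in one medium and not in the other is thus not shown to be a difference between them.

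The DMSO arrays also gave a value free of the slide. Within slide 1, siOCT4-DMSO 1 and 2 against the 3 siNT-DMSO arrays put 3789 of the 3912 rises (96.9%) above 0 and 2064 of the 2225 falls (92.8%) below 0, where 42.8% of all probes tested lay above 0. On the slide 2 array siOCT4-DMSO 3, taken against the same siNT-DMSO arrays, 3363 of the rises were above 0 and 1845 of the falls below it (47.2% of all probes above 0). With the slide as a fixed term, whose size rests on siOCT4-DMSO 3 against siOCT4-DMSO 1 and 2, 6121 of the 6137 called probes kept their sign and 3424 were called. The array siOCT4-DMSO 3 stood apart from the other 2 of its group, at -23.9 on the first principal component (36% of the variance) against 60.7 and 22.7. Without it the calls with POVPC numbered 8374, among them all 6137.

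**Figure D3:**
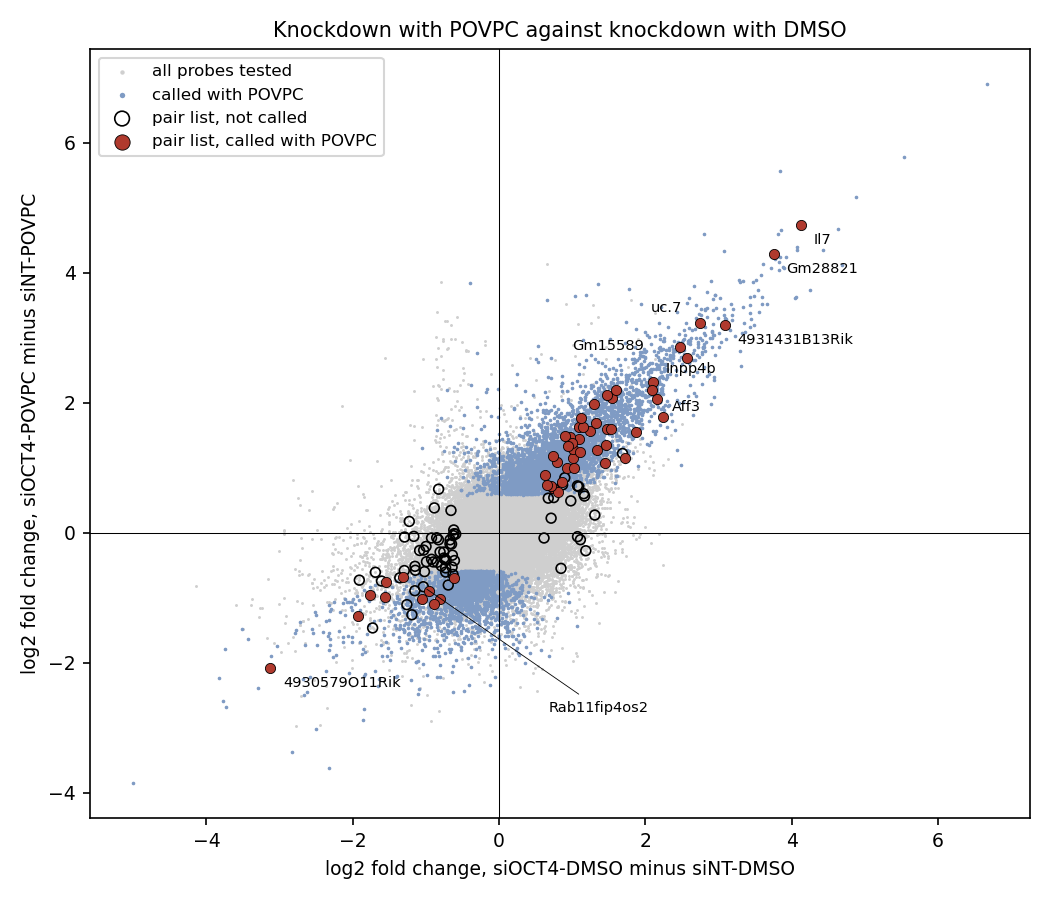
Log2 difference of each probe tested in the DMSO knockdown (x axis) and in the POVPC knockdown (y axis), in grey for all probes, blue for calls with POVPC, and large symbols for the 121 probes listed for the DMSO knockdown, filled where called with POVPC. The filled symbols lie in the upper right (44 probes) or the lower left (11 probes).

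The study also drew a list from the DMSO arrays, which are other arrays than the 6 compared here. The list rests on the same DMSO arrays as the comparison above, and 87 of its 121 probes were called in DMSO here. It is therefore not evidence separate from that comparison. It pairs lncRNAs with a neighbouring mRNA, 66 pairs from 65 lncRNA and 56 mRNA probes. The table used here holds fewer pairs than the study states, and the counts below cover these pairs only. Of these 121 probes, 55 were called with POVPC (45.5%), against 11.9% of lncRNA and 10.2% of mRNA probes overall. Among all 3596 calls with DMSO the share was 64.4%, so the list does not stand out from them. All 55 had the sign they had in DMSO. Of the 61 members higher in DMSO, 44 rose and none fell, with a median log2 difference of 1.25 (1.11 in DMSO). Of the 60 lower in DMSO, 11 fell and none rose, with a median of -0.48 (-0.91 in DMSO). The median over all probes tested was -0.08. Of the 55, 48 were also called with scaling to the 75th percentile, where the list had 37 rises and 31 falls, and 39 with the slide as a fixed term. With normexp the list had 36 calls.

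Both members rose in 12 pairs. Pairs can share an mRNA, as those of Casz1, Aff3, Rasgef1b, Pdgfc and Rab11fip4 do, and are then not separate observations of it. The intronic antisense transcript uc.7, named for an ultraconserved element on chromosome 4 (148823568 to 148823824), read 5.34, 5.46 and 5.65 in siNT-POVPC and 8.66, 8.52 and 8.96 in siOCT4-POVPC, a rise of 3.23 (SE 0.17, adjusted p = 2.6e-06 by limma). Its host gene Casz1, for a zinc finger transcription factor of heart and vessel development, rose from 6.17, 6.08 and 6.43 to 7.71, 7.80 and 7.94, by 1.59. Neither overlapped between the groups, although the call of Casz1 was lost with the slide as a fixed term (0.63). The other uc transcripts listed for the same host gene, uc.2 (0.17) and uc.5, were not called, and 0 of 3 siOCT4-POVPC arrays had uc.5 well above background.

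The natural antisense 4931431B13Rik rose by 3.19 (SE 0.18, adjusted p = 3.58e-06 by limma), from 6.12, 6.20 and 6.55 to 9.45, 9.46 and 9.53. Its neighbour Itgad, for the integrin alpha D chain of leukocytes, rose by 1.79, from 6.73, 6.93 and 6.79 to 8.46, 8.67 and 8.67. Neither overlapped between the groups.

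The Aff3 locus on chromosome 1 gave 3 pairs, since 3 antisense lncRNA probes there share the host gene. Aff3 encodes a nuclear protein of the elongation complexes. It read 5.89, 5.88 and 6.19 against 8.08, 7.90 and 8.15 and rose by 2.06 (SE 0.26, adjusted p = 0.000639 by limma). The 2 probes of different Gm16152 transcripts rose by 2.68 and 2.19, and Gm16150 by 1.38. Dhx58, which encodes the RNA sensor LGP2 of innate immunity, read 6.83, 6.48 and 7.29 against 8.80, 9.09 and 8.94 and rose by 2.08, and its antisense Dhx58os rose by 1.47. Further pairs that rose were Tfap2a (1.62), a transcription factor of the neural crest, with Gm47061 (1.25), Psmd11 (1.97), a proteasome subunit, with AK157616 (1.48), Dtx3 (2.19), a ubiquitin ligase, with F420014N23Rik (0.72), Dclre1b (1.35), a nuclease of telomeres, with Gm15471 (1.77), and Tlx1 with Tlx1os (1.06 and 0.88). The calls of Tlx1, Tlx1os and F420014N23Rik were lost with scaling to the 75th percentile. Tlx1 was called in 9 of the 26 settings, and not in the fit of the 6 arrays alone, with the replicate block, with the slide as a random term or without any 1 of the 6 arrays except siNT-POVPC 3. Tlx1os was not called with the slide as a fixed term (adjusted p = 0.289 by limma) or without any 1 of the 6 except siNT-POVPC 3, and F420014N23Rik not without siNT-POVPC 1 or 2 or siOCT4-POVPC 2 or 3. Dclre1b was called in 17 of the 26 settings, and not with the replicate block or without siNT-DMSO 1, siNT-POVPC 1 or 2 or siOCT4-POVPC 1 or 3. With normexp AK157616 (0.52), Tlx1, Tlx1os and F420014N23Rik were not called.

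In 5 pairs the lncRNA fell and the mRNA rose. Inpp4b, for a phosphatase that removes a lipid signal of the PI3K pathway, rose by 2.32, from 3.70, 3.84 and 5.61 to 6.40, 6.71 and 7.01. Its intronic antisense 4930579O11Rik fell by 2.08, from 7.61, 8.73 and 6.86 to 5.30, 5.85 and 5.81. The groups did not overlap for either, but the siNT-POVPC arrays were spread wide, and neither was called with the slide as a fixed term (adjusted p = 0.072 and 0.199 by limma). Pdgfc, for a ligand of the PDGF receptors, rose by 1.63 (SE 0.20, adjusted p = 0.000512 by limma), from 4.89, 5.36 and 5.20 to 6.80, 6.83 and 6.71. Its natural antisense Gm16000 fell by 1.01, from 7.91, 7.73 and 7.68 to 6.85, 6.71 and 6.71, and both were called under all 26 settings. The other such pairs were Rab11fip4 (1.57), an adaptor of recycling endosomes, with Rab11fip4os2 (-0.90), Ankrd52 (0.99), a subunit of a protein phosphatase, with Gm17201 (-1.28), and Lima1 (0.77), an actin-bundling protein, with Gm17057 (-0.97). With the slide as a fixed term Rab11fip4 (adjusted p = 0.135), Ankrd52 (0.280), Gm17201 (0.136) and Gm17057 (0.0556) were not called by limma, so that of the 5 pairs Pdgfc with Gm16000 was the one with both members called under all 26 settings. With normexp Rab11fip4 (0.56), Lima1 (0.51) and Gm17057 (-0.46) were not called. Without single arrays, calls were lost for Rab11fip4os2 (any 1 of the 6), Gm17057 (any 1 except siNT-POVPC 3), Inpp4b (siNT-POVPC 1 or 2 or siOCT4-POVPC 3) and Gm17201 (siOCT4-POVPC 1).

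Only 1 pair fell together, Rasgef1b (-0.70), a Ras exchange factor, with Gm16226 (-1.10). Rasgef1b was not called with the slide as a fixed term (-0.23, adjusted p = 0.504 by limma), with normexp or without siNT-POVPC 1 or 2 or siOCT4-POVPC 2 or 3, and Gm16226 not with normexp or without siNT-POVPC 1 or siOCT4-POVPC 2 or 3. In 8 pairs the lncRNA alone rose, among them Gm15589, an intronic antisense of the potassium channel gene Kcnh2. Gm15589 read 10.99, 11.17 and 11.35 against 13.90, 14.05 and 14.10 and rose by 2.85 (SE 0.23, adjusted p = 3.27e-05 by limma), whereas Kcnh2 differed by -0.42 and was not called. The others were AK021278 (1.60), antisense within the neurotrophin receptor gene Ntrk2 (-0.80), Gm13068 (1.55), with the mitochondrial carrier gene Slc25a33 (-1.11), AK030290 (1.33), with the Polycomb gene Scmh1 (-0.52), Gm11915 (1.29), with the ephrin receptor gene Epha7 (0.74), AK048719 (1.19), with Shkbp1 (-0.61), Gm46440, with Zfp708 (-0.05), and Gm17546 (0.73), with the scramblase gene Ano6 (-0.35). None of these mRNAs passed the test. Another Epha7 probe was not called either, but lay below 0 in all 26 settings (-1.455 to -0.37). Scaling to the 75th percentile called it lower (-1.08, adjusted p = 0.00762 by limma). So did the slide as a fixed term (-1.455, adjusted p = 0.0233 by limma). With normexp AK048719 (0.46), Gm46440 (0.54), Gm13068 and Gm17546 were not called. Gm13068 and Gm17546 lost their call with scaling to the 75th percentile, and also without any 1 of the 6 arrays compared for Gm13068 and without siNT-POVPC 1 or 2 or siOCT4-POVPC 1 or 3 for Gm17546.

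In 13 pairs only the mRNA rose. Beside Il7, these held Slfn5 (1.68) with Slfn5os (0.27), Tmcc1 (1.44), a membrane protein of the endoplasmic reticulum, with Gm20404 (-0.06), Capn5 (1.27), a calpain protease, with Gm16938 (-0.27), Dpf2 (1.15), a subunit of the BAF chromatin remodeller, with Gm42067 (-0.45), and Kif3c (1.15), a kinesin motor, with Gm48512 (-0.41). In 4 pairs only the mRNA fell, among them Nos1 (-1.02), the neuronal nitric oxide synthase, which was not called with the slide as a fixed term (adjusted p = 0.29 by limma), and Fpr3. In 2 pairs only the lncRNA fell, Gm20319 (-0.99) with the receptor gene Il1rap (-0.21) and Gm12940 with Zmym1. Calls were lost without any 1 of the 6 arrays compared for Gm12940, without any 1 except siNT-POVPC 3 for Nos1 and Gm20319, without any 1 except siOCT4-POVPC 1 for Capn5, and without siNT-POVPC 2 or any siOCT4-POVPC array for Fpr3. Nos1 also lost its call without siNT-DMSO 3 or siOCT4-DMSO 2, which enter the fit through the shared spread. With the slide as a fixed term Dpf2, Fpr3, Gm20319 and Gm12940 were not called either. With normexp Dpf2 (0.44), Fpr3 (-0.33), Gm20319 (-0.44) and Nos1 were not called. Nos1 was also not called in the fit of the 6 arrays alone. In 21 pairs neither member was called. Over the 66 pairs, members had the same sign in 33 and opposite signs in 33, with 35 and 31 in DMSO. Of 41 natural antisense pairs 20 had the same sign, and of 25 intronic antisense pairs 13.

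**Figure D4:**
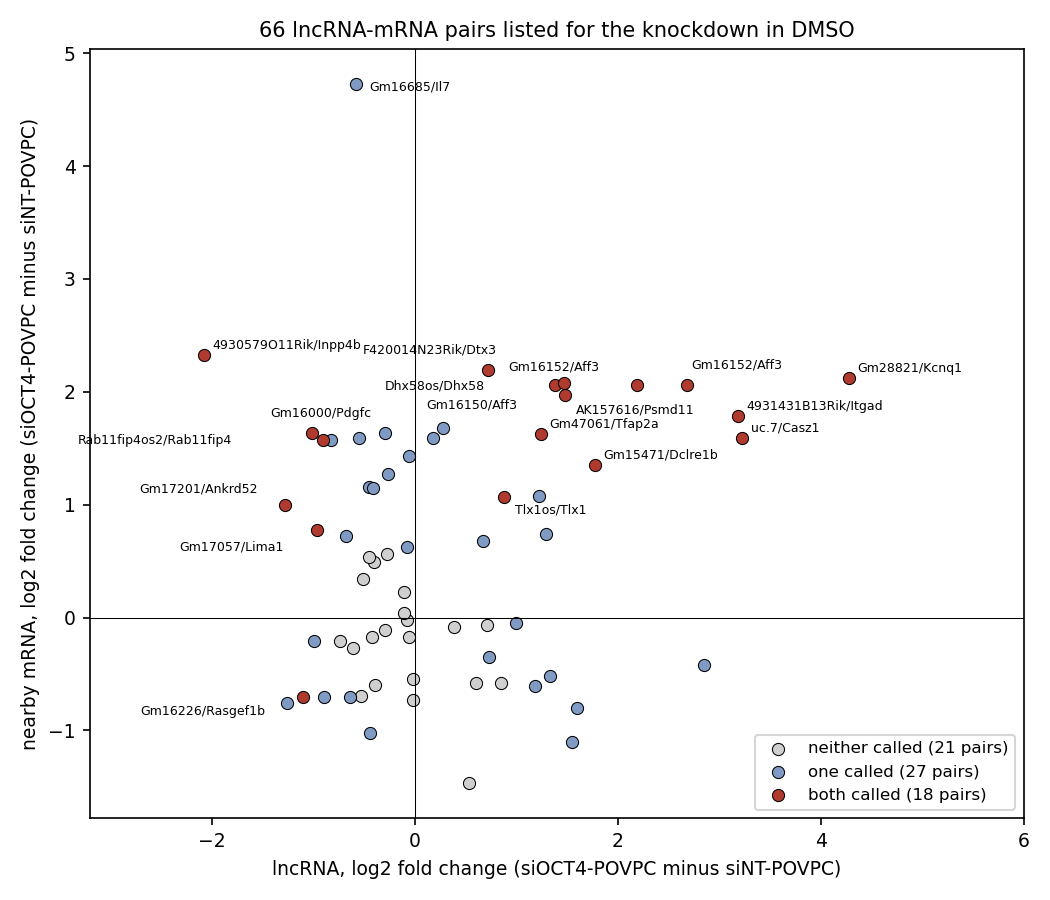
Log2 difference of the lncRNA (x axis) and of its neighbouring mRNA (y axis) in siOCT4-POVPC vs. siNT-POVPC for 66 pairs listed for the DMSO knockdown, coloured by how many members were called. Of the 18 pairs with both called, 12 are at the upper right, 5 at the upper left and 1 at the lower left.

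Of the other transcripts that the study named as array results, Hoxb3, a homeobox gene of the anterior Hoxb cluster, read 11.33, 11.63 and 11.79 against 12.74, 12.76 and 12.70 and rose by 1.15 (adjusted p = 0.0121 by limma). The call was lost without siNT-POVPC 1. Zfp652, for a zinc finger repressor, rose by 1.08, while its antisense Zfp652os (1.22, adjusted p = 0.12 by limma) was not called, with siNT-POVPC 3 at 4.14 and the other siNT-POVPC arrays at 6.15 and 6.06. Zfp652 lost its call with scaling to the 75th percentile (0.65, adjusted p = 0.0919 by limma) and with normexp (0.44). One Gm12940 probe fell by 0.68 and another probe of that gene (-0.35) was not called, nor was its neighbour Zmym1 (0.72). The differences of Hoxb5 (1.14), Hoxb5os (0.32), Hoxb6 (0.03), Gm15564 (0.80), Parp9 (0.60) and Notum (-0.11) did not pass the test. The paper named these for other comparisons than the one made here. Hoxb5os, Hoxb6 and Notum were named for POVPC vs. DMSO, and Hoxb5os, Hoxb5, Gm15564 and Parp9 for siOCT4-POVPC vs. siOCT4-DMSO. By quantitative RT-PCR in Oct4 knockout cells, the paper reported Hoxb5os higher and Gm15564 lower. Notumos was not well above background on any of the 6 arrays.

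Outside the pairs, most names belong to probes that the study listed for POVPC vs. DMSO in siNT cells, 298 lncRNA and 857 mRNA probes. These are the part of that list held in the tables used here, for the lncRNAs a part of those higher with POVPC. That list was chosen on the siNT-POVPC arrays, 3 of the 6 compared here, so its direction is not independent evidence. Among the mRNAs, Cers3, a ceramide synthase of very long acyl chains, had the largest rise (3.75, SE 0.25, adjusted p = 1.01e-05 by limma), from 3.93, 3.70 and 4.56 to 7.79, 7.64 and 8.02. Stil, for a centriole duplication factor, rose by 2.98, from 3.23, 2.54 and 2.86 to 5.95, 5.84 and 5.76. On the siNT-POVPC side Stil was well above background on 2 of 3 arrays. Further rises were B4galnt1 (2.56), a ganglioside synthase, and Mybpc2 (2.26), a myosin-binding protein of fast skeletal muscle. With normexp the differences were smaller, at 1.94 for Cers3, 0.78 for Stil, 2.08 for B4galnt1 and 1.22 for Mybpc2. All 4 were still called there. In DMSO the log2 differences were 1.78 for Cers3, 1.52 for Stil and 3.30 for B4galnt1, each called, while Mybpc2 was not called there (adjusted p = 0.075 by limma). The difference between media did not pass the test for any of the 4.

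Gene groups were drawn from the named mRNAs. Most members have a name because the study listed them on arrays that include the siNT-POVPC arrays, 13 of 15 in the contractile group and all 16, 23 and 21 in the sterol, replication and ribosomal groups. So although 6.67% of all mRNA probes were called higher and 3.49% lower, with a median of -0.08, nothing is read from the counts against these shares. Of 15 smooth muscle contractile and cytoskeletal genes tested, 4 fell and 2 rose (median -0.28). Beside Actr3b, the falls were Sgcb (-1.12), for beta-sarcoglycan of the dystrophin complex, Ppp1cb (-1.59), the catalytic subunit of myosin phosphatase, and Rock1 (-1.85), a kinase that inhibits that phosphatase. Sgcb read 9.01, 8.81 and 8.89 against 7.84, 7.72 and 7.77, and was called under all 26 settings. Ppp1cb read 9.37, 8.96 and 8.65 against 7.55, 7.76 and 6.91, and was not called without siOCT4-POVPC 3 or in the methods' t-test after adjustment. Rock1 was not called without any 1 of the 6 arrays compared. Lmo7 (1.05), an adaptor of cell junctions, and Lima1 rose.

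Of 20 genes of the growth factor response, 4 rose and none fell (median -0.06). Pdgfra, for the alpha receptor of PDGF-C, read 2.72, 2.69 and 2.77 against 4.26, 4.50 and 4.61 and rose by 1.73 (SE 0.25, adjusted p = 0.0012 by limma). It was well above background on 1 siNT-POVPC array, and the call was lost with normexp background correction (0.35) and with a floor of 20 (0.0076), so the size of the difference depends on how low signals are treated. Pdgfc, described above, Dusp16 (0.75), a phosphatase of MAP kinases, and Zfp36l1 (0.68), an mRNA decay factor, were the others. Dusp16 lost its call with scaling to the 75th percentile, with normexp and without any 1 of the 6 arrays except siNT-POVPC 2. Zfp36l1 lost its call with the slide as a fixed term (0.24, adjusted p = 0.633 by limma), without any 1 of the 6 except siNT-POVPC 3, and without siNT-DMSO 1 or siOCT4-DMSO 1 or 2. Ereg, for the EGF receptor ligand epiregulin, differed by -1.47 (adjusted p = 0.0586 by limma) and was not called.

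Of 10 interferon-stimulated and nucleic acid sensing genes, 2 rose, Dhx58 and Slfn5 (1.68, SE 0.14, adjusted p = 3.98e-05 by limma), and none fell (median 0.32). Slfn5 read 4.76, 4.72 and 4.94 against 6.44, 6.40 and 6.64. The others were not called, among them Zbp1 (0.64) and Mb21d1 (-0.92), the gene for the DNA sensor cGAS, which was called with the slide as a fixed term (-2.41, adjusted p = 0.0177 by limma). Of 22 NF-kB, cytokine and chemokine probes, Il7 and Tnip1 (0.82), an inhibitor of NF-kB, rose and none fell (median -0.21). Tnip1 was not called with scaling to the 75th percentile or without any 1 of the 6 arrays compared.

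Of 23 DNA replication and histone genes, Stil and Rfc1 (1.27), the large subunit of the clamp loader, rose, and Nasp (-0.91), a histone H1 chaperone, fell (median -0.32). Of 14 Hox and other homeobox probes, Hoxb3 and Tlx1 rose (median 0.13). Of 20 axon guidance probes, Sema4d (0.62) rose, and Rock1 and the guidance receptor gene Robo2 (-1.71) fell (median -0.33). Of 19 phagocytosis and uptake probes, Scarb1 (0.86), the HDL receptor, rose and Fpr3 (-0.76), a formyl peptide receptor, fell (median 0.02). No call was made among 16 sterol and fatty acid synthesis probes (median 0.05), 15 extracellular matrix genes (0.10) or 21 ribosomal and ribosome biogenesis genes (-0.11). Several of these calls did not hold when 1 array was left out. Those of Scarb1 and Robo2 were lost without any 1 of the 6 arrays compared, and those of Nasp and Sema4d without any 1 except siNT-POVPC 3. Nasp (adjusted p = 0.0813 by limma) and Sema4d (0.147) were also not called with the slide as a fixed term, nor Sema4d with scaling to the 75th percentile. That term also moved the list medians, to 1.32 for sterol and fatty acid synthesis and 0.91 for extracellular matrix. Those for DNA replication and histones (-0.87), homeobox (0.69) and phagocytosis and uptake (0.40) moved too. The signs turned for NF-kB, cytokines and chemokines (0.31), interferon-stimulated genes (-0.09), the growth factor response (0.23) and axon guidance (0.03).

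Among the listed lncRNAs named here the falls outnumbered the rises, 35 against 3 of 298, with a median of -0.40. Of all lncRNA probes 4.44% were called lower and 7.49% higher, with a median of -0.08, and nothing is read from the contrast, since the list was chosen on the siNT-POVPC arrays. By the study's classes, 18 of 109 intergenic, 8 of 103 exon sense-overlapping, 4 of 45 natural antisense, 4 of 26 intronic antisense, 1 of 10 bidirectional and 0 of 5 intron sense-overlapping lncRNAs fell. The 60-base probes of the members that the text turns on are given here so that the transcripts can be identified, with no base marked.
humanlincRNA0052: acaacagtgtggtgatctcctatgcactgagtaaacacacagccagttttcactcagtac
Gm40155: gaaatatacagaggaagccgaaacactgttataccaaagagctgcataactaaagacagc
Ankdd1b: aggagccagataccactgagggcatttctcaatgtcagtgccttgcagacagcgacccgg
Gm13465: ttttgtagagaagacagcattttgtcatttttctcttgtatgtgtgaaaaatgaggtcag
The probe of Ankdd1b is for a lncRNA transcript that the study's table places head to head with Poc5 on chromosome 13 (96416134 to 96436625, minus strand). Gm13465 is intergenic on chromosome 2 (45733457 to 45753311, plus strand), Gm40155 is antisense within Dnajb14 on chromosome 3 (137875925 to 137878126), and humanlincRNA0052 is intergenic on chromosome 3 (147737095 to 147761636). Of the mRNA coordinates in the same tables, 891 of 893 overlap the gene of that symbol in GRCm38.

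humanlincRNA0052 was the largest of the 3 rises (1.51, SE 0.25, adjusted p = 0.00314 by limma), from 6.33, 5.82 and 6.19 to 7.50, 7.51 and 7.87, and was 2.13 higher in DMSO. Gm40155 fell from 5.08, 4.40 and 4.84 to 2.44, 2.43 and 2.43, where it was not well above background. By the bound of the reported fit it was at least 1.69-fold lower (adjusted p = 0.000639 by limma), so it is not ranked here. Its call was lost with normexp (-0.54) and with a floor of 20 (-0.47), where the fold was under 1.5. Ankdd1b read 7.32, 7.41 and 8.17 against 5.57, 5.92 and 5.41 and fell by 2.00 (adjusted p = 0.0223 by limma). Gm13465 read 7.62, 7.17 and 7.71 against 5.61, 6.02 and 5.16 and fell by 1.90 (adjusted p = 0.0453 by limma). The probes of the 35 falls had a median GC content of 40%, against 41.7% in the 260 that were not called.

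Relative to the siNT-DMSO mean, the median of the 35 falls was 1.43, 1.00 and 1.46 on the siNT-POVPC arrays and -0.14, 0.18 and -0.32 on the siOCT4-POVPC arrays. In 34 of the 35 the siOCT4-POVPC mean was within 1 log2 unit of the siNT-DMSO mean. The choice of the list and of its falls largely fixes these levels. Over the 298 listed lncRNAs named here the siOCT4-POVPC medians were 0.96, 0.93 and 0.78, and 170 were within 1 log2 unit. The array siOCT4-DMSO 3 had a median of 1.05 over the 35, where siOCT4-DMSO 1 and 2 had -0.37 and -0.15. It was above both of them for 30 of the 35, and for 198 of the 298. It was within 1 log2 unit of the siNT-POVPC mean for 31 of the 35 and for 234 of the 298, so its nearness to siNT-POVPC was not confined to the falls. Over the 298 the median of siOCT4-DMSO 3 was 1.19, and those of siOCT4-DMSO 1 and 2 were 0.52 and 0.26. Its distance from these 2 arrays was thus larger among the falls. Gm13465, for example, read 7.64 on siOCT4-DMSO 3 and 5.11 and 5.71 on siOCT4-DMSO 1 and 2. Robo2 (7.49 against 5.11 and 5.74), Rock1 (9.12 against 7.67 and 7.94), the galanin gene Gal (8.23 against 6.79 and 7.06) and Ankdd1b (7.58 against 5.30 and 6.08) had the same order. siOCT4-DMSO 3 shares slide 2 with the siOCT4-POVPC arrays, on which these transcripts were low, and its part in the results was not tested beyond the fits without it.

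**Figure D5:**
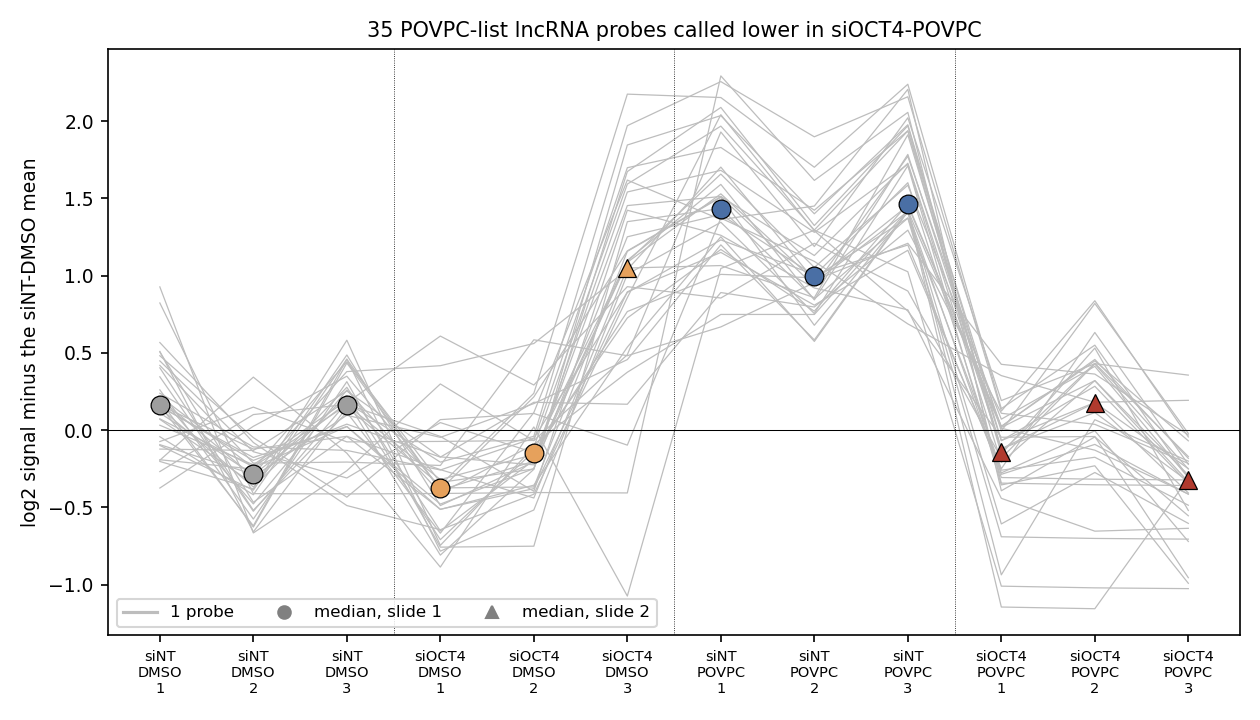
Log2 signal minus the siNT-DMSO mean (y axis) of 35 POVPC-list lncRNA probes that fell in siOCT4-POVPC, by array (x axis), with a grey line per probe and the median as a circle (slide 1) or triangle (slide 2). The siNT-POVPC medians (1.00 to 1.46) and that of siOCT4-DMSO 3 (1.05) are high, and the siOCT4-POVPC medians (-0.32 to 0.18) are near 0, as the choice of the probes largely fixes.

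The call of Gm13465 was lost without any 1 of the 6 arrays compared, that of Ankdd1b without siNT-POVPC 2 or 3 or siOCT4-POVPC 1 or 3, and that of Gal without siOCT4-POVPC 3. Of the 96 calls followed through the settings, 41 were called under all settings counted, among them 26 of the 55 of the pair list. None of the 96 changed sign in any. These were transcripts chosen for description, and the other calls among named probes were not followed.

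Some of the largest differences belong to probes with no name here. The mRNA probe ASMM10AP1B100016490V4 read 2.33, 2.36 and 2.32 in siNT-POVPC, not well above background, and 9.13, 9.15 and 9.42 in siOCT4-POVPC, at least 77.4-fold higher (adjusted p = 8.25e-10 by limma). The lncRNA probe ASMM10LNC1A100079676V4 rose by 5.78, from 6.51, 6.62 and 6.77 to 12.37, 12.37 and 12.52. The largest falls were the lncRNA probe ASMM10LNC1A100021113V4 (-3.85) and the mRNA probe ASMM10AP1B100002465V4 (-3.62), whose call was lost without any 1 of the 6 arrays compared and with the slide as a random term. In DMSO all 4 had the same sign, with 5.54 for the second and -2.32 for the last. The first read 2.37 on each siNT-DMSO array, at the floor of the signals, so no size is given for it there.

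The octamer ATGCAAAT, the letters that Oct factors are known to bind, was looked for on both strands of RefSeq promoters (GRCm38.p6, 250 bases before to 50 after each start). It was present in 570 of 32851 promoters (1.74%). Of the named transcripts that rose, 1 of 44 promoters held it, of those that fell 2 of 74, and of the pair list 0 of 80. The 3 windows are shown in the gene's orientation with the octamer in capitals.
Ptprh: caagggagatATGCAAATgtaaatagtc
Acsbg1: ctgggggccaATTTGCATaaaaatgaag
Fgd3: cgctacggaaATGCAAATgtgccactgt
The octamer begins at -34, -50 and -88 from the start of Ptprh (chr7:4604058-4604085), Acsbg1 (chr9:54661918-54661945) and Fgd3 (chr13:49309279-49309306). Ptprh, a receptor phosphatase, rose by 0.80, whereas Acsbg1, an acyl-CoA synthetase, and Fgd3, an exchange factor of Cdc42, fell by 0.81 and 1.08. These matches describe letters in these windows, and not binding.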

How the data were processed

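RNA from 12 samples was hybridized to single-colour Agilent arrays (Arraystar mouse lncRNA array). Per the study's methods, Arraystar ran the arrays and the scanned images were read by Agilent Feature Extraction 11.0.1.1. Its output was deposited as intensities (processed signal, median signal and background). The authors also deposited log2 values for 60641 probes, quantile normalized per their methods, and these were an alternative. Their tables of fold changes and p-values, of which only a part was used here, served only to name probes (391 lncRNA and 923 mRNA probes). Transcripts of the pair table, which has no probe names, were matched to the probe whose unpaired t-test on the deposited log2 values, the test those tables name, gave the listed fold change and p-value (48 of 48 that could be checked were the same probe). The lists, and the transcripts to describe, were chosen with earlier results of these data known.

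From the processed signal, outlier spots were set to missing, values under 5 were raised to 5, and the log2 values of all 12 arrays were quantile normalized together (limma 3.58.1, R 4.3.3). Probes marked as well above background on 3 or more arrays were kept. A mean per group was fitted by lmFit and eBayes over all 12 arrays, with Benjamini-Hochberg adjustment over 54506 probes. Where a probe was not well above background on any array of a group, the fold is a bound, taken against the lowest signal well above background on each array. Named were the transcripts that the paper names, members of the DMSO pair list called here with their partner, the 10 largest named rises and falls without overlap in each class, members of the gene lists that were called with up to 3 others, and 4 unnamed probes. One called probe outside the deposited value table is not reported here. The fit was tested on simulated data, whose outcome is not given here and on which no result rests. The alternatives are under the closing section, and the number of arrays limits the precision.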

Additional observations from a re-analysis of the deposited data

Results flagged for a closer look

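For 3 of the transcripts chosen for description, the knockdown went one way on every array with POVPC and the other way on every array with DMSO. The share of such probes over all those tested is not given here, so nothing is read from this count. Gm26669, a natural antisense of Zfp36l1, was 0.67 higher with POVPC and 0.83 lower with DMSO on the log2 scale (-0.83), a difference of 1.49 (adjusted p = 0.562 by limma). The lncRNA uc.5 gave a difference between media of -1.40 (adjusted p = 0.562 by limma), but its signals lay near the floor. It was well above background on 0 of 3 siOCT4-POVPC arrays (2.43 to 2.44) and read 2.37 to 2.56 on the siNT-DMSO arrays, and with a floor of 20 the difference with POVPC was 0.0076, so neither its size nor its direction is given weight. Dpt, for the matrix protein dermatopontin, was at -0.83 with POVPC and 1.03 with DMSO, a difference of -1.85 (adjusted p = 0.562 by limma). None of these differences passed the test.

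Agilent probes printed 10 times on each array are outside the deposited value table. Their use was decided after the data were seen. Of 47 tested, 4 were called (8.51%), with a median log2 difference of -0.27 over the 47, against 11.3% and -0.08 over all probes of the value table tested, and 3 of the 4 are given here. Apoe, for the lipid carrier apolipoprotein E, read 7.34, 7.32 and 8.70 in siNT-POVPC and 9.32, 9.36 and 9.54 in siOCT4-POVPC and rose by 1.62 (adjusted p = 0.0177 by limma), and siNT-POVPC 3 was the highest of its group. Il2, for interleukin 2, rose by 1.15 (adjusted p = 0.000384), and was 1.12 higher with DMSO. Atg3, an autophagy enzyme gene, fell by 0.95 (adjusted p = 0.0341). With DMSO neither Apoe (0.48, adjusted p = 0.471 by limma) nor Atg3 (-0.83, adjusted p = 0.077 by limma) was called. These p-values are from limma. With the slide as a fixed term Il2 was called, and Apoe (adjusted p = 0.204) and Atg3 (adjusted p = 0.117) were not.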

How the results depend on the processing

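Quantile normalization of the deposited signals and the authors' own log2 values gave nearly the same calls (6089 shared). The counts of lncRNA and mRNA calls were 8117 and 3800 with 75th percentile scaling, 2116 and 1211 with normexp and 6974 and 3847 at an unadjusted p. They were 6464 and 3656 by the unpaired t-test unadjusted, and 6123 and 3647 with the slide as a fixed block. Fitting the 6 arrays alone gave 3280 mRNA calls. Calls shared with DMSO were 4388 at an unadjusted p, 63 by the unpaired t-test after adjustment and 3610 with the slide block. The difference between media gave 4179 at an unadjusted p and 2374 with the slide block. The pair list gave 36 calls with normexp. Leaving out 1 array gave 1942 to 5475 lncRNA, 976 to 2899 mRNA, 1435 to 3569 shared, 37 to 60 pair-list and 0 to 0 difference calls. The lowest lncRNA and mRNA counts were without siOCT4-POVPC 3 and the highest without siOCT4-DMSO 3, and leaving out siNT-POVPC 1 or 2 or any siOCT4-POVPC array cut the calls by over 1.5 times (2918 to 3706 in all). The cause was not tested.

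Replicate numbers did not pair the samples (r of 0.07, 0.08 and 0.10). A replicate block gave 3678 lncRNA, 1907 mRNA, 1993 shared, 49 pair-list and 0 difference calls. None of the 96 calls followed through the settings changed sign. Named transcripts not called that did were, with the slide block, Ano6 0.0012, Csf2 1.34, Egr1 0.87, Exosc3 -0.015, Gm12940 0.073, Gm20404 0.038, Hbegf 1.23, Hoxb6 -0.31, Il1rap 0.0077, Notum 0.0052, Notumos -0.48, Parp9 -0.058, Thy1 0.061, Ubd -1.06 and uc.2 -0.21. With the slide as a random block they were Csf2 0.11, Hbegf 0.13, Hoxb6 -0.12 and Notumos -0.0015. With 75th percentile scaling they were Exosc3 -0.42, Hoxb6 -0.082, Nap1l4 -0.064, Notumos -0.39, Parp9 -0.20, Smtn -0.10, Vav1 -0.69 and Zbp1 -0.30. With a floor of 20 they were Nap1l4 -0.012, Parp9 -0.086, Vav1 -0.0018 and uc.5 0.0076, and with normexp Vav1 -0.030. Over the fits without 1 array, AK153494 ranged from -0.17 to 0.021, Csf2 from -1.36 to 0.00063, Gm20404 from -0.21 to 0.047, Hoxb6 from -0.059 to 0.11, Il1rap from -0.35 to 0.060, Notum from -0.27 to 0.088, Vav1 from -0.097 to 0.41 and Zfp708 from -0.18 to 0.055.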
